A study of Mus musculus with 8 samples.

Results

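The transcription factors that set myeloid commitment were followed in leukemic stem cells (LSCs) of CML mice with and without imatinib. They are 9 genes, chosen by symbol: Spi1, Cebpa, Cebpb, Cebpd, Cebpe, Gfi1, Irf8, Klf4 and Id2. All 9 were found among the 15576 genes of the count table. Bulk RNA-seq was run on LSCs from bone marrow, with 4 samples from untreated CML mice (CML) and 4 from CML mice given imatinib (CML-TKI). Every sample came from double transgenic BCR-ABL×SCL-tTA mice on a C57BL/6 background, in which an Scl (Tal1) regulatory element drives the tetracycline-controlled activator in stem and progenitor cells and BCR-ABL is turned on once tetracycline is withdrawn. The CML-TKI mice received imatinib, an inhibitor of the BCR-ABL tyrosine kinase, at 400 mg/kg on alternate days over 4 weeks by the sample labels, while the figure legend and the methods of the study also give lower doses. The gate in the labels is lineage-negative, Sca1+, cKit+, Flt3-, CD150- and CD48+ for all 8 samples, whereas a figure legend of the study defines LSCs as CD48- and CD150+. Age, sex, primary or transplanted mice, and whether a library came from 1 mouse or from pooled mice are not stated in the labels, so p-values measure only the spread between these libraries, which may in part be technical.

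In blood formation, a small set of transcription factors moves a stem cell towards the myeloid lineages. PU.1 and C/EBPalpha open the granulocyte and monocyte programme, C/EBPepsilon and GFI1 act on the granulocyte side, and IRF8 and KLF4 act on the monocyte and dendritic side. ID2 does not bind DNA itself and blocks E proteins by pairing with them. In CML the stem cell clone makes an excess of mature myeloid cells, and imatinib spares the LSCs.

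Total counts ran from 4939639 to 8620097 in the CML libraries (1, 2, 3 and a column numbered 5, called CML 5) and from 1041562 in CML-TKI 3 to 5104276 in CML-TKI 1, so that 3 counts correspond to between 0.348 and 2.88 CPM (counts scaled to a common library total) depending on the library; this floor covers counting error only, and levels of genes are TMM-normalized CPM. The ribosomal RNA gene Rn45s held 38.3% of counts in CML 5, 20.2 to 23.1% in CML 1 to 3 and 9.23 to 22.5% in CML-TKI libraries, and 14425 or more genes had a count in the CML libraries and CML-TKI 1 but 11835 to 12614 in CML-TKI 2 to 4. When libraries were scaled by totals without Rn45s, all 9 factors kept an adjusted p under 0.05 (closing section). Beyond that scaling, the part of either in the results was not tested. The CML libraries lay together on the first principal component, from -74.4 to -69.3, while CML-TKI 1 lay at -19.2 and the other CML-TKI libraries between 70.1 and 118.8. Among the surface genes of the gate, Kit fell by 1.92 on the log2 scale, Slamf1, which encodes CD150, fell by 3.42 from 32.4 to 3.33 CPM, and Cd48 rose from 5.05 to 103.3 CPM. Ly6a, which encodes Sca1, and Flt3 did not pass the test (adjusted p = 0.373 and 0.522), and leaving out CML-TKI 1 brought Ly6a past it at a log2 fold change of -2.52. Ly6a was 33.2 to 38.5 CPM in the CML libraries and 44.3, 9.61, 8.77 and 1.56 CPM in CML-TKI 1 to 4. Flt3 was 15.7 to 17.2 CPM in the CML libraries and 13.7, 7.75, 18.6 and 63.2 CPM in CML-TKI 1 to 4. CD150 and CD48 are the antigens on which the labelled gate and that of the legend differ. The sum of 9 stem cell markers (Procr, Mecom, Hlf, Fgd5, Tek, Meis1, Hoxb5, Ctnnal1 and Vwf) was 1511 to 1915 CPM in the CML libraries and 461.7, 31.9, 106.3 and 280.4 CPM in CML-TKI 1 to 4. Procr, Mecom, Fgd5 and Hoxb5 were at 0 in CML-TKI 2 and CML-TKI 4, Tek was also at 0 in CML-TKI 2, and Hoxb5 also in CML-TKI 3. Ctnnal1 overlapped between the groups, at 20.3 to 45.6 CPM in the CML libraries and 69.1, 1.55, 24.1 and 12.2 CPM in CML-TKI 1 to 4. Of the 8 genes of this list that were tested, 3 fell at an adjusted p under 0.05, against 3.93% of all genes tested. Of the 280.4 CPM in CML-TKI 4, 236.5 CPM were Vwf. All 4 CML-TKI libraries thus lay below every CML library in this sum. With these markers and with Slamf1 at 29 to 37.7 CPM and Cd48 at 3.86 to 6.40 CPM, the CML libraries went against their CD150- and CD48+ label. In CML-TKI 4, the levels of Ly6a and Flt3 went against the Sca1+ and Flt3- parts of the label. The labels give 1 gate for both groups, and if the groups were sorted by different gates, gate and imatinib cannot be told apart in any fold change given here. LSCs below means cells labelled so.

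All 9 factors were higher in the libraries labelled CML-TKI than in those labelled CML, by a median log2 fold change of 3.70, and for all 9 the lowest CML-TKI library lay above the highest CML library. The estimated log2 fold changes ran from 1.83 for Spi1 to 5.26 for Irf8, but without CML 5 Cebpe (6.80) lay above Irf8 (5.45), as it did with limma-voom (6.49 against 5.47), and without CML-TKI 1 Id2 (1.91) lay below Spi1 (2.04). The 9 of 9 with an adjusted p under 0.05 stand against 6.29% of the 11937 genes tested that were higher past that threshold, and the 9 of 9 without overlap stand against 10.3% of genes tested. The median log2 fold change over all genes tested was -0.00026. CML 1, CML 2 and CML 3 differed little, with a biological coefficient of variation of 8.63 to 11.8% between pairs of them, against 36.8 to 39.5% between them and CML 5 and 51.8 to 74.9% between CML-TKI libraries. Leaving out 1 of these 3 libraries left 6 factors past the threshold each time, without Spi1, Cebpe and Id2, and adding the 3 into 1 sample left 2, Irf8 (adjusted p = 0.0322) and Klf4 (adjusted p = 0.0468). With CML 5 and CML-TKI 1 both left out 8 factors passed, all but Id2 (adjusted p = 0.0530). Without either CML-TKI 2 or CML-TKI 4 all 9 passed, and without both 7 passed, all but Spi1 (log2 fold change 1.22, adjusted p = 0.0950) and Cebpe (3.95, adjusted p = 0.0686). In bulk RNA, more cells that express a gene and more of its RNA per cell cannot be told apart.

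**Figure D1:**
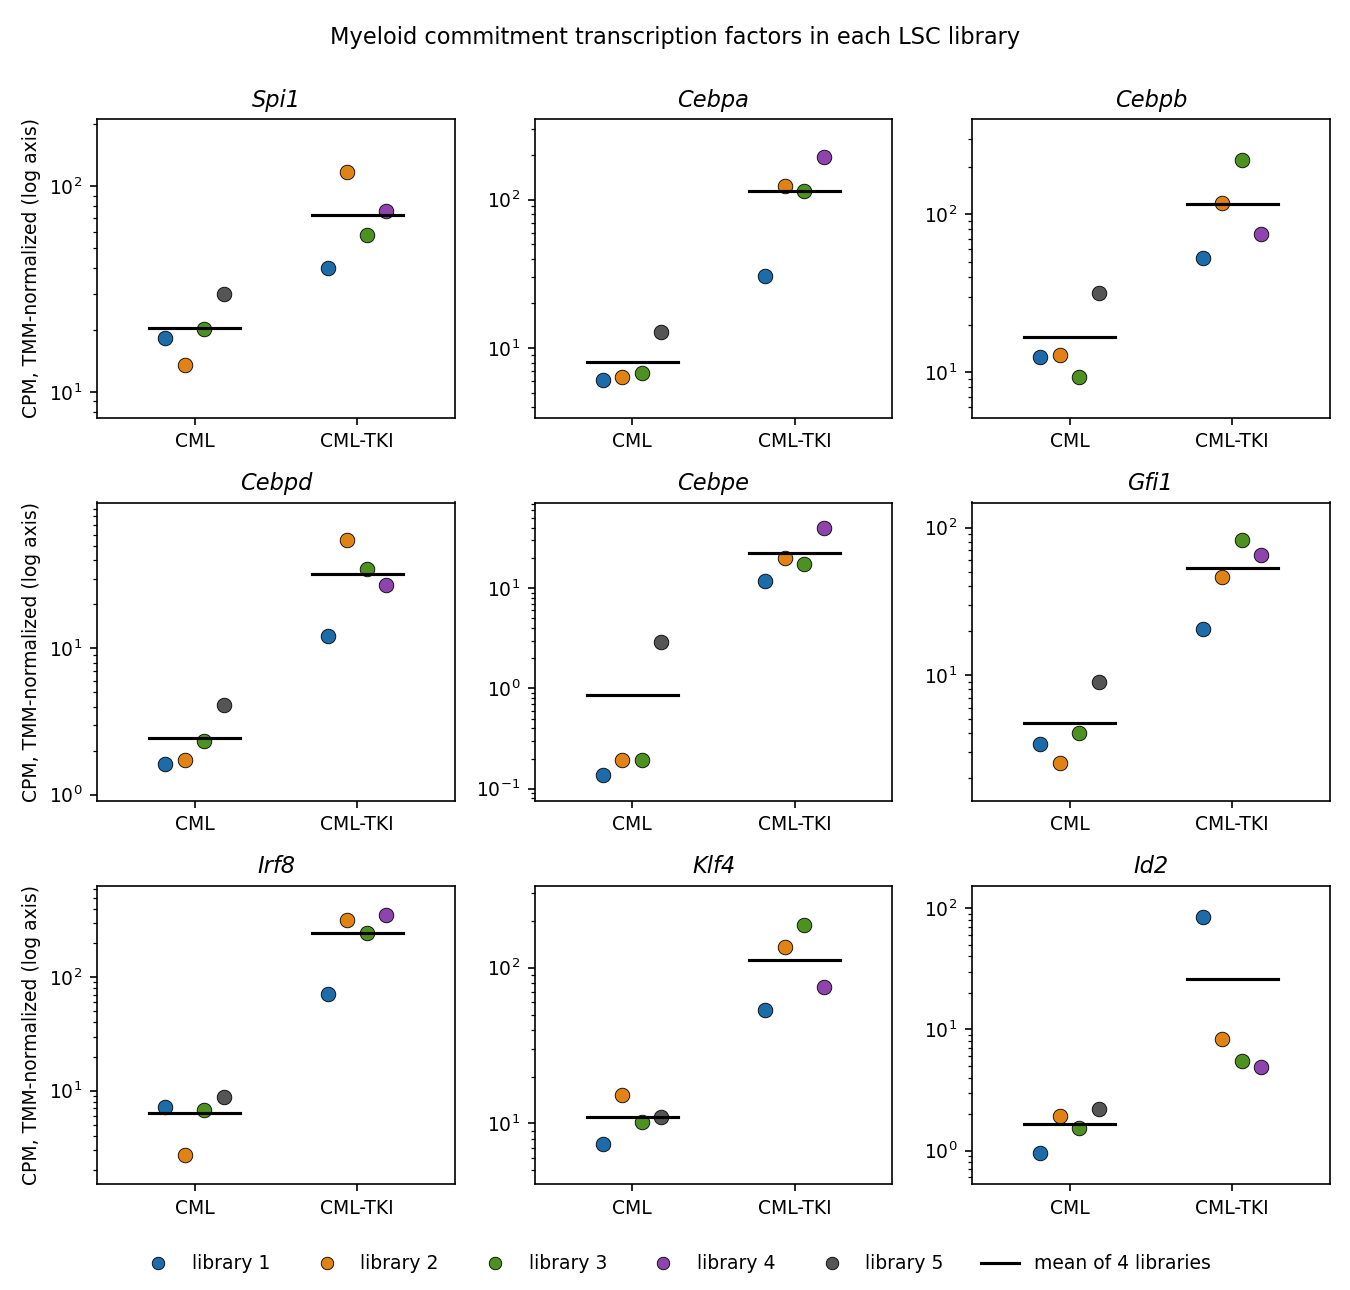
Level of each factor in every library, in TMM-normalized CPM on log axes whose limits differ between panels, with CML on the left and CML-TKI on the right of each panel, points coloured by library number and lines at the group means. No panel shows an overlap between the groups, CML-TKI 1 is the lowest CML-TKI library in 8 of 9 panels, and in the Id2 panel it is the highest at 85.3 CPM.

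Sequence in front of the start site was read for the factors because all 9 rose. RefSeq windows of 250 bases on GRCm38.p6 were found for 6 of the 9 factors, in 8 windows. Both Gfi1 windows, the Id2 window and 1 of the 2 Irf8 windows stand before RefSeq starts that lie inside the gene bounds given below, so nearly all of the printed Gfi1 window and its match are within the annotated gene. They were searched on both strands for the letters TTGCNNAA (C/EBP), GAGGAA (PU.1), GAAANN followed by GAAA (IRF), TTCNNNGAA (STAT), GGGCGG (GC box), TGANTCA (AP-1), CANCTG (E-box) and CCAAT. The windows for Irf8, Gfi1 and Cebpa are printed, the first 2 because they hold a C/EBP or a STAT match and the last because Cebpa held none of the motifs. Capitals mark the STAT matches in Irf8 and the C/EBP match in Gfi1. The windows lie at chr8:120736108-120736357 (plus strand), chr5:107725806-107726055 (minus strand) and chr7:35119043-35119292 (plus strand).
Irf8: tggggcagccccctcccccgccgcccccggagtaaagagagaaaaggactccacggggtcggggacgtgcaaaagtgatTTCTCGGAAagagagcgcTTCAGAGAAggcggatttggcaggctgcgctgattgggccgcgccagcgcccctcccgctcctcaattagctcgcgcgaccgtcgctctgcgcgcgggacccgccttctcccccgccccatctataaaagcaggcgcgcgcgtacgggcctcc
Gfi1: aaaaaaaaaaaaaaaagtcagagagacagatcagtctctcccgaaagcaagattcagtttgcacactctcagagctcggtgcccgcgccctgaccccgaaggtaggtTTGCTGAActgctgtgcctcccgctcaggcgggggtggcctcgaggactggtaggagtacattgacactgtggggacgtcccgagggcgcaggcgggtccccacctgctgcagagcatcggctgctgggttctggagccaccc
Cebpa: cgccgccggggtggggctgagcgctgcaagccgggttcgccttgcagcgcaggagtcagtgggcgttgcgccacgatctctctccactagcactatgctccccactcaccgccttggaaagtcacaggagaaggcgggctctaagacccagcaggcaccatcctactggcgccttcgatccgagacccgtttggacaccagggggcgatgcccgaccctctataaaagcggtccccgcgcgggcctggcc
The STAT letters occur in 7.01% of 32817 such windows and the C/EBP letters in 9.57%. The PU.1 letters are found in 23.3% of windows and the IRF letters in 2.97%, and none of the 8 windows of the factors held either. The Cebpb and Klf4 windows held 5 and 4 GC boxes, which 32.7% of windows hold at least once, and the Id2 window held 3 CCAAT boxes, against 33.8% of windows with at least 1. A match is a run of letters and not a bound site, and its absence concerns these 250 bases only.

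Spi1 (chr2:91082390-91115756, plus strand, GRCm38) encodes PU.1, the ETS factor required for macrophages and B cells. It measured 18.4, 13.5, 20.3 and 30.0 CPM in CML 1, 2, 3 and 5, and 39.9, 117.8, 58.1 and 76.2 CPM in CML-TKI 1 to 4. The highest CML library was CML 5 and the lowest CML-TKI library was CML-TKI 1, and the gap between them was the narrowest of the 9 factors in fold terms. The means were 20.5 ± 6.91 and 73.0 ± 33.3 CPM (SD, n = 4 each), a log2 fold change of 1.83 (SE 0.38, adjusted p = 0.0156 by edgeR's quasi-likelihood test). The call was lost without CML 1, CML 2 or CML 3, with adjusted p of 0.0622, 0.0586 and 0.0562, while the log2 fold change stayed between 1.49 and 2.06 whichever library was left out.

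Cebpa (chr7:35119293-35121928, plus strand) encodes C/EBPalpha, needed for the step to the granulocyte-monocyte progenitor. Its level was 6.13, 6.37, 6.76 and 12.9 CPM in CML 1, 2, 3 and 5, and 30.8, 122.7, 114.0 and 193.3 CPM in CML-TKI 1 to 4. The first 3 CML libraries were nearly level, CML 5 stood above them, and CML-TKI 1 stood below the other CML-TKI libraries. Cebpa averaged 8.05 ± 3.26 CPM in CML and 115.2 ± 66.5 CPM in CML-TKI LSCs, a 14.2-fold difference (log2 fold change 3.83, SE 0.54, adjusted p = 0.00264). It stayed between 3.45 and 4.15 on the log2 scale with any 1 library left out, and was called each time.

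Cebpb (chr2:167688915-167690418, plus strand) encodes the C/EBP used in emergency granulopoiesis. In CML 1, 2, 3 and 5 it was 12.5, 12.9, 9.28 and 31.6 CPM, against 52.4, 118.4, 221.4 and 74.7 CPM in CML-TKI 1 to 4. CML 5 was again the highest CML library, and CML-TKI 3, the shallowest library, was the highest of all. The log2 fold change was 2.79 (SE 0.54, adjusted p = 0.0110), from 16.6 ± 10.2 to 116.7 ± 75.0 CPM, and ranged from 2.31 to 3.30, called each time, as single libraries were left out.

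In the annotation 5 factors overlap another gene. Whether reads were counted by strand is not stated, so Cebpa, Cebpb, Cebpd and Gfi1, which lie opposite to another gene, are uncertain to that extent. Cebpb lies opposite to Tmem189, whose adjusted p was 1.0, and Cebpd to Spidr. Cebpa and Gfi1 lie opposite to Gm45091 and A430072P03Rik, and Irf8 overlaps Gm20388 on its own strand, and these 3 genes were not analysed here. Counting by strand would not separate Irf8 from Gm20388.

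Cebpd (chr16:15887286-15891031, plus strand) encodes the C/EBP induced in acute-phase responses. CML 1, 2, 3 and 5 held 1.63, 1.74, 2.32 and 4.12 CPM and CML-TKI 1 to 4 held 12.2, 55.2, 35.1 and 27.1 CPM. It was low in every CML library and rose from 2.45 ± 1.15 to 32.4 ± 17.9 CPM, 13-fold (log2 fold change 3.70, SE 0.56, adjusted p = 0.00366). Its estimated counts were not whole numbers, and the gene lies opposite to Spidr, whose own log2 fold change was 0.20 (adjusted p = 0.710).

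Cebpe (chr14:54710360-54712174, minus strand) encodes the C/EBP of terminal granulocyte maturation. It had 1 count in each of CML 1, 2 and 3 and 21 counts in CML 5, and 62, 64, 16 and 153 counts in CML-TKI 1 to 4. In CPM this was 0.136, 0.193, 0.193 and 2.89 in the CML libraries, the first 3 of them under the floor of 3 counts, and 11.8, 19.8, 17.5 and 39.8 in CML-TKI 1 to 4. Thus almost all CML reads of Cebpe came from CML 5. The log2 fold change was 4.61 (SE 0.98, adjusted p = 0.0164). Without CML 5 the fitted value was 6.80, which rests on 3 CML counts against 295 CML-TKI counts, a ratio of counts per total of 132.9 with a 95% exact counting interval of 45.0 to 648.1. The call was lost without CML 1, CML 2 or CML 3, with adjusted p of 0.0536, 0.0571 and 0.0553.

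With Cebpg, the broadly expressed C/EBP that lacks a strong activation domain, the C/EBP genes were set side by side per kilobase of exon. Their summed level ran from 17.8 to 35.7 CPM per kb over the CML libraries and from 72.4 to 236.0 CPM per kb over the CML-TKI libraries. Cebpg made up 39.4 ± 14.4% of that sum in CML and 11.3 ± 4.62% in CML-TKI LSCs (SD, n = 4), and the ranges met, at 17.75% in CML 5 and 18.2% in CML-TKI 1. The share of Cebpa was 12.6 ± 1.75% in CML and 25.7 ± 11.3% in CML-TKI, with no overlap (10.9 to 14.4% and 16.1 to 41.0%). Cebpb took 43.2 ± 10.7% in CML and 46.1 ± 14.2% in CML-TKI LSCs, and the ranges overlapped. The share of Cebpe was 2.16 ± 2.91% and 11.6 ± 5.13%, overlapping through CML 5 at 6.52%. Exon length was the union of annotated GENCODE exons, for instance 1241 bases for Cebpe and 3746 for Cebpd, and the shares depend on it. These shares are descriptions without a test.

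**Figure D2:**
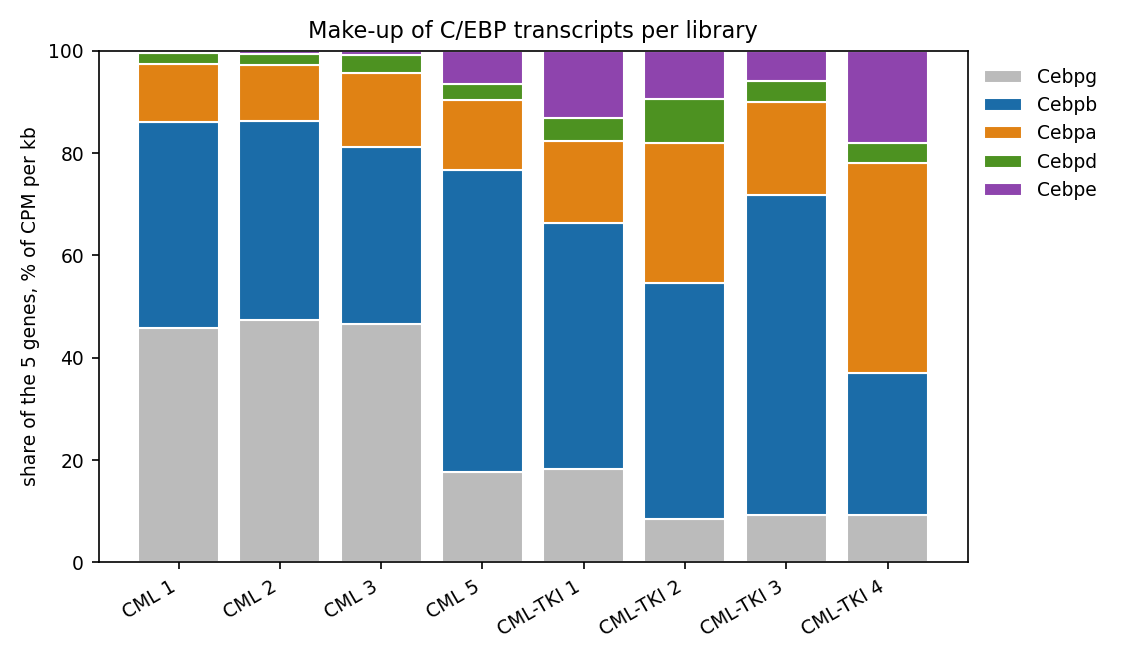
Make-up of the C/EBP transcripts in each library, as stacked bars from 0 to 100% of the summed CPM per kb of Cebpg, Cebpb, Cebpa, Cebpd and Cebpe. The Cebpg segment is 45.8 to 47.3% in CML 1 to 3, 17.75% in CML 5 and 8.45 to 18.2% in CML-TKI 1 to 4, and the Cebpa segment is largest in CML-TKI 4 at 41.0%.

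Gfi1 (chr5:107716657-107726036, minus strand) encodes a zinc finger repressor that favours granulocytes over monocytes. It measured 3.40, 2.51, 4.06 and 8.94 CPM in CML 1, 2, 3 and 5 and 20.5, 45.9, 82.2 and 65.0 CPM in CML-TKI 1 to 4. CML 5 and CML-TKI 1 were the 2 libraries nearest to the other group. The means were 4.73 ± 2.88 and 53.4 ± 26.5 CPM, an 11.1-fold rise (log2 fold change 3.47, SE 0.55, adjusted p = 0.00435), and the call held without any 1 library. Gfi1b, the paralog used in erythroid and megakaryocytic cells, went the other way without passing the test: it had 48.9 to 70.0 CPM in CML libraries and 0 to 22.6 CPM in CML-TKI libraries (log2 fold change -2.42, adjusted p = 0.0914), and passed it without CML-TKI 2, where 0 counts allow up to 0.995 CPM (log2 fold change -2.0, adjusted p = 0.0161). Without CML-TKI 4 its log2 fold change was -3.18 (adjusted p = 0.0639). It also passed with DESeq2 (adjusted p = 0.0228), limma-voom (0.0265), thinned counts (0.0341) and without both CML-TKI 2 and CML-TKI 4 (0.00817). In counts, the ratio of Gfi1 to Gfi1b was at most 0.128 in each CML library and at least 2.0 in each CML-TKI library with a Gfi1b count.

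Irf8 (chr8:120736358-120756694, plus strand) encodes the interferon regulatory factor that directs monocytes and dendritic cells and restrains granulocytes. It was 7.22, 2.70, 6.76 and 8.80 CPM in CML 1, 2, 3 and 5 and 71.0, 318.0, 245.5 and 356.1 CPM in CML-TKI 1 to 4. Even CML-TKI 1, far below the other 3, stood well above every CML library. From 6.37 ± 2.6 to 247.7 ± 126.4 CPM, the log2 fold change was 5.26 (SE 0.57, adjusted p = 8.70e-04), or 38.4-fold, and it stayed between 5.01 and 5.57 whichever library was left out. Irf8 and Klf4 kept their calls under each of the 21 alternatives run. Relative to Gfi1, its counts were 0.985 to 2.12 times as many in the CML libraries and 2.99 to 6.93 times as many in the CML-TKI libraries, with no overlap.

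Klf4 (chr4:55527143-55532466, minus strand) encodes the Krüppel-like factor of inflammatory monocytes. Its values were 7.35, 15.2, 10.2 and 11.0 CPM in CML 1, 2, 3 and 5, and 53.4, 135.7, 186.3 and 74.9 CPM in CML-TKI 1 to 4. Here CML 5 was not the highest CML library, which was CML 2. The means of 11.0 ± 3.26 and 112.6 ± 60.3 CPM gave a log2 fold change of 3.35 (SE 0.44, adjusted p = 0.00181). Klf4 counts were 1.02 to 5.64 times those of Irf8 in the CML libraries and 0.210 to 0.759 times in the CML-TKI libraries, with no overlap.

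Id2 (chr12:25093799-25097140, minus strand) was set apart by 1 library. It was 0.953, 1.93, 1.55 and 2.20 CPM in CML 1, 2, 3 and 5, and 85.3, 8.37, 5.48 and 4.94 CPM in CML-TKI 1 to 4. CML-TKI 1, the lowest CML-TKI library for the other 8 factors, was the highest here, and CML-TKI 3 rested on 5 counts. The means were 1.66 ± 0.541 and 26 ± 39.5 CPM, with a log2 fold change of 3.98 (SE 1.0, adjusted p = 0.0336). Without CML-TKI 1 it was 1.91 with an adjusted p of 0.0491. The call was lost without CML 1, 2, 3 or 5, with adjusted p of 0.108, 0.0943, 0.0998 and 0.0884. Id1, another inhibitor of E proteins, had the same form, at 83.8 CPM in CML-TKI 1 and between 13.2 and 14.9 CPM in the other CML-TKI libraries against 0.817 to 3.71 CPM in CML. Its log2 fold change was 3.87 (adjusted p = 0.0139), 2.67 without CML-TKI 1, and the call was lost without CML 1, CML 2 or CML 3 (adjusted p = 0.0509, 0.0550 and 0.0504). Id3, named after its values were seen and removed by the filter before testing, was 179.7 CPM in CML-TKI 1, at most 1.24 CPM in the other CML-TKI libraries, 11.8 CPM in CML 5 and at most 2.90 CPM in the other CML libraries.

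**Figure D3:**
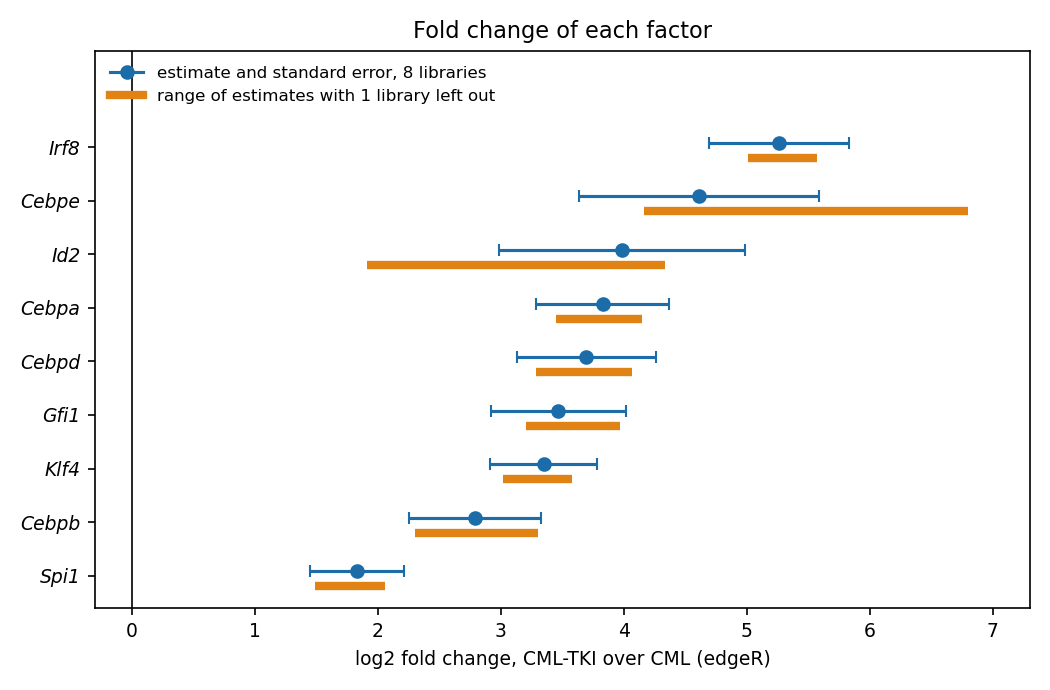
Log2 fold change (CML-TKI over CML) of each factor from edgeR, with points and bars for the estimate and its standard error over 8 libraries and thick lines for the range of estimates with 1 library left out. All ranges lie above 0; they reach from 1.91 to 4.33 for Id2 and from 4.16 to 6.80 for Cebpe, and from 5.01 to 5.57 for Irf8.

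The order of libraries within a group differed among the factors: Spi1 and Cebpd were highest in CML-TKI 2, Cebpb, Klf4 and Gfi1 in CML-TKI 3, and Cebpa, Cebpe and Irf8 in CML-TKI 4. CML-TKI 1 was the lowest CML-TKI library for 8 of 9 factors, all but Id2, against 62.7% of the 751 genes that were higher past the threshold and 22.8% of genes tested, and CML 5 was the highest CML library for 8 of 9, all but Klf4, against 33.4% and 40.7%. Pearson's r of log2 CPM over the 8 libraries was between 0.866 and 0.980 for pairs among the 8 factors other than Id2, and between 0.472 and 0.632 for Id2 with each of them. With 4 libraries of each group, such an r mostly holds the difference between groups, and it is given as a description. Among the 9314 genes whose log2 CPM averaged 3 or more, the pattern most like that of Irf8 was that of Ctsh (r = 0.997), Ctsg (0.996) and Mpo (0.994). Cebpa lay closest to Itgb7 (0.994), Hk3 (0.990) and Prss57 (0.989), and Cebpd to Psap (0.997), Zbtb7b (0.994) and Sdf2l1 (0.992). For Gfi1 these were Tmed3 (0.992), Npc2 (0.988) and Itgb2 (0.988), for Cebpe Atp6v1e1 (0.982), Gm2a (0.980) and Taldo1 (0.976), for Cebpb Chsy1 (0.987), Clcn7 (0.985) and Msrb1 (0.981), for Klf4 Ncf4 (0.989), Mtch2 (0.989) and D1Ertd622e (0.988), and for Spi1 Nuak2 (0.982), Rfc4 (0.980) and Erp29 (0.980). Id2 was most like Tuba1a (0.977), Tubb2a (0.966) and Ypel2 (0.964).

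Levels of the factors were compared with each other per kilobase of exon. Exon length was the union of all annotated GENCODE exons of a gene, from 1241 bases for Cebpe to 7055 for Irf8, whereas reads were quantified against RefSeq. The order depends on these lengths: by CPM alone, Irf8 was the highest factor in CML-TKI LSCs, at 247.7 against 116.7 CPM for Cebpb. In CML LSCs Cebpb was highest at 11.0 CPM per kb, followed by Spi1 at 7.62, Klf4 at 3.59, Cebpa at 3.05, Gfi1 at 1.48, Irf8 at 0.903, Cebpe at 0.687, Id2 at 0.680 and Cebpd at 0.655 CPM per kb. Spi1 and Klf4 were the one pair of neighbours in that order whose ranges over libraries did not overlap, and they all but met. The lowest Spi1 was 5.013 and the highest Klf4 5.001 CPM per kb, both in CML 2 and resting on 70 and 79 counts. In CML-TKI LSCs the order was Cebpb at 77.6, Cebpa at 43.7, Klf4 at 36.9, Irf8 at 35.1, Spi1 at 27.1, Cebpe at 17.9, Gfi1 at 16.8, Id2 at 10.7 and Cebpd at 8.64 CPM per kb, and the ranges of all neighbours overlapped. By these means Spi1 stood above Klf4, Cebpa and Irf8 in CML LSCs and below them in CML-TKI LSCs, but within CML-TKI 1 it lay above Cebpa and Irf8 (14.8 against 11.7 and 10.1 CPM per kb) and within CML-TKI 4 above Klf4 (28.3 against 24.6 CPM per kb). Its counts were 2.12 to 3.0 times those of Cebpa in the CML libraries and 0.394 to 1.3 times in the CML-TKI libraries.

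Other transcription factors of blood formation did not move as a block. Of 51 listed, 44 were tested, of which 7 were higher and 6 lower past the threshold, against 6.29% and 3.93% of genes tested, and their median log2 fold change was -0.25. The count of 13 called fell to 6 without CML 1, 7 without CML 2 and 8 without CML 5. In the C/EBP family Cebpg rose by 0.93 on the log2 scale (adjusted p = 0.0436), a call lost without any 1 library other than CML-TKI 1, and Cebpz (0.11, adjusted p = 0.869) and Ddit3 (1.01, adjusted p = 0.331) did not pass. Of the other interferon regulatory factors, Irf5 rose from 12.9 ± 1.45 to 75.3 ± 51.1 CPM (log2 fold change 2.52, adjusted p = 0.00926). Irf1, Irf2, Irf7 and Irf9 had negative log2 fold changes (-0.64, -0.61, -1.54 and -0.48) and did not pass, and the median of the 6 tested was -0.55. The ETS factors Etv6 and Fli1, which act in stem cells and megakaryocytes, fell by 1.20 and 1.05 (adjusted p = 0.00499 and 0.0148), the latter losing its call without CML 1 or CML 2 (adjusted p = 0.0632 and 0.0586). Klf13 rose by 0.98 (adjusted p = 0.0430), a call likewise lost without any 1 library but CML-TKI 1. Jun, a partner in AP-1, fell by 2.79 from 554.6 ± 113.1 to 79.3 ± 39.4 CPM (adjusted p = 0.00195), and Junb by 1.57 (adjusted p = 0.0417), the latter lost without CML 1, 2, 3 or 5 or without CML-TKI 3 or 4. The other genes past the threshold, named to complete the count, were Irf4 (5.5, lost without CML 1 or CML 5, and 4.88 without CML-TKI 2), Nfil3 (3.66) and Rara (2.18, lost without CML 1 or CML 2). Irf4 was at 42.8 and 39.5 CPM in CML-TKI 2 and 3 and at 3.80 and 2.08 CPM in CML-TKI 1 and 4.

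Of 6 listed regulators of other lineages 4 were tested, of which 2 fell and none rose, against 3.93% and 6.29% of genes tested. Gata2, a factor of stem cells, mast cells and megakaryocytes, fell by 2.32 from 284.4 ± 49.8 to 57.2 ± 24.0 CPM (adjusted p = 0.00418). Zfpm1, the GATA1 partner FOG-1, fell by 2.73 (adjusted p = 0.0172), a call lost without CML 5 (adjusted p = 0.0515), and Gata1 did not pass (-1.32, adjusted p = 0.155). The ratio of Cebpa to Gata2 counts was 0.0229 to 0.0360 in the CML libraries and 0.411 to 5.66 in the CML-TKI libraries, and that of Spi1 to Gata1 counts was 0.209 to 0.410 and 1.43 to 22.4, each with no overlap.

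Textbook targets of the factors were mostly higher with them. Of 27 listed and tested, 23 rose past the threshold, against 6.29% of genes tested, and none fell, with a median log2 fold change of 3.68. The count was 15 without CML 2, 15 without CML 5 and 14 without both CML-TKI 2 and CML-TKI 4. All 5 growth factor receptor genes rose (median 2.59), among them Csf2rb, the common beta chain, from 33.3 ± 9.93 to 426.9 ± 328.0 CPM (log2 fold change 3.68, adjusted p = 0.00369, and 3.07 without CML-TKI 2), and Csf3r, the G-CSF receptor, by 1.43 (adjusted p = 0.0304, lost without any 1 library but CML-TKI 1). All 5 azurophil granule genes rose (median 7.91). Mpo, the myeloperoxidase, went from 12.6 ± 10.4 to 3121 ± 1754 CPM (log2 fold change 7.94, adjusted p = 0.00102, and 8.54 without CML 5), and Prtn3, proteinase 3, from 32.0 ± 11.2 to 867.8 ± 418.9 CPM (log2 fold change 4.76, adjusted p = 8.70e-04). Of the 7 genes of specific and gelatinase granules, 5 rose (median 2.43), among them Ngp by 2.43 (adjusted p = 0.0370, lost without any 1 library but CML-TKI 1), while Ltf, lactoferrin, had 7.98 CPM in CML-TKI 1 and 136.1 to 386.9 CPM in the other CML-TKI libraries (log2 fold change 2.37, adjusted p = 0.101, with 2.77 and 0.00229 without CML-TKI 1 and 1.67 and 0.215 without CML-TKI 3). Of the 10 monocyte and dendritic genes, 8 rose (median 4.22), with Lyz2, lysozyme, at 253.4 ± 32.9 and 1924 ± 1054 CPM (log2 fold change 2.92, adjusted p = 0.00266), and Cst3 at 0.92 not passing (adjusted p = 0.0782, and 0.00827 without CML-TKI 1).

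**Figure D4:**
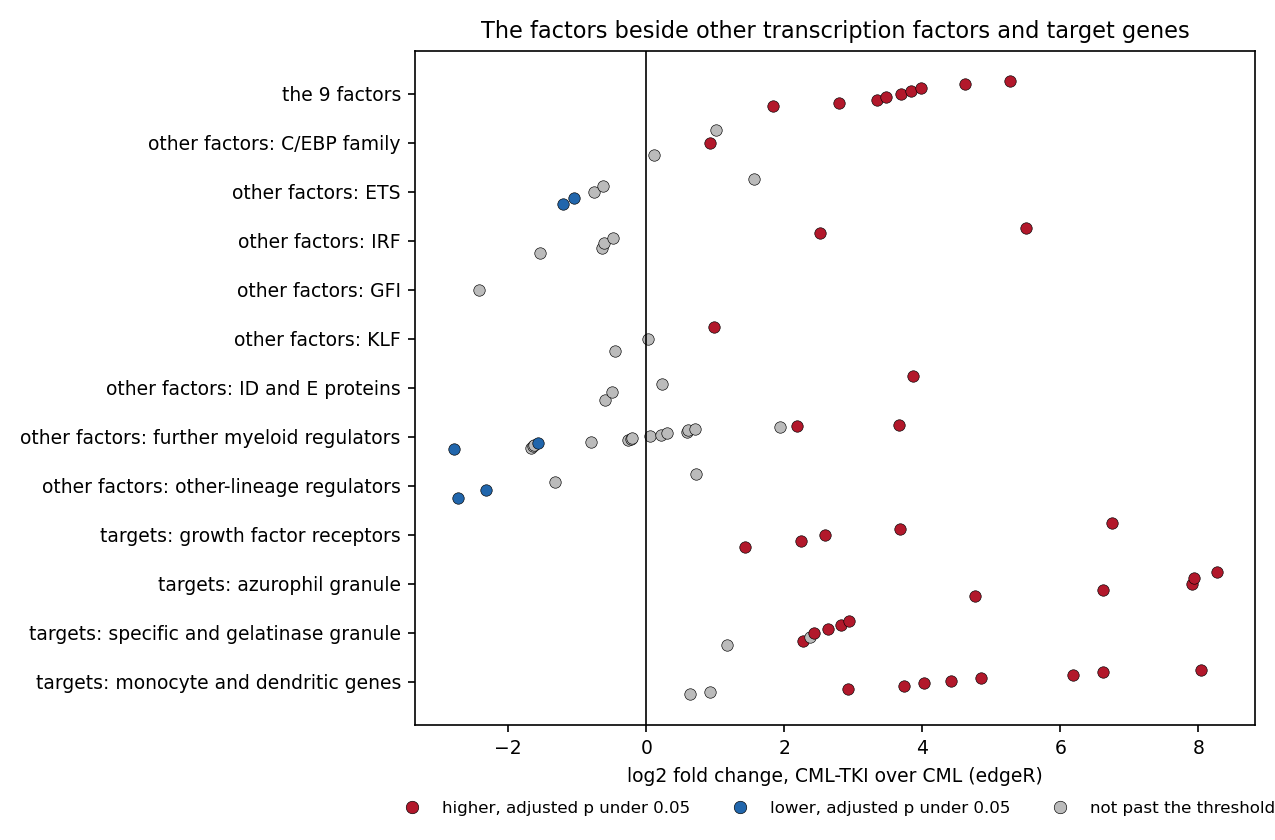
Log2 fold change (CML-TKI over CML, edgeR) of the 9 factors, of 44 other transcription factors by family and of 27 target genes by group, 1 point a gene, coloured by direction where the adjusted p was under 0.05. All 9 factors lie to the right of 0, between 1.83 and 5.26, the other factors lie on both sides with a median of -0.25, and all target groups lie to the right.

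Markers of other cell types also differed between the groups. The summed level of 11 granulocyte markers was 152.5 to 254.8 CPM in the CML libraries and 1432 to 8344 CPM in the CML-TKI libraries, lowest in CML-TKI 1, and that of 9 monocyte and macrophage markers was 23.2 to 67.2 and 769.8 to 4167 CPM, also lowest in CML-TKI 1. In CML-TKI 1 the granulocyte sum was mostly that of the azurophil genes Mpo (695.0 CPM), Prtn3 (279.2), Elane (220.5) and Ctsg (86.6), while S100a9 (33.8) and Mmp8 (14.1) lay above the CML libraries, S100a8, Camp, Ngp and Ly6g within their range and Ltf below it. Both lists share genes with the targets above. The stem cell marker sum was lower in every CML-TKI library and highest among them in CML-TKI 1, the library in which 8 of the factors were lowest, and the sum of 5 megakaryocyte markers was 404.1 to 704.7 CPM in CML and 43.1 to 347.8 CPM in CML-TKI libraries. That sum was mostly Itga2b, and 2 of the 5 genes, Itga2b and Gp9, fell past the threshold, against 3.93% of genes tested, while Ppbp, at 64.5 CPM in CML-TKI 4, had a positive log2 fold change of 1.93 (adjusted p = 0.387). Basophil and mast cell markers (5 genes) were 2.06 to 4.05 CPM in CML and 4.38 to 1164 CPM in CML-TKI libraries, highest in CML-TKI 4. Erythroid markers (6 genes) stood at 31583 CPM in CML-TKI 3 and at 42.7 to 456.3 CPM in the other CML-TKI libraries, against 92.8 to 145.7 CPM in CML. Sums of dendritic (6), B cell (7), T and NK cell (4 of 6 found) and endothelial and stromal markers (7) overlapped between the groups, with 287.2 CPM of B cell markers in CML-TKI 3 against at most 23.4 CPM elsewhere. T and NK cell markers were highest in CML-TKI 3 (154.5 CPM). Endothelial and stromal markers were at 1024 CPM in CML 3 and 373.5 CPM in CML 5, against 63.5 to 215.9 CPM in CML-TKI libraries. Of these 7 genes, 1 fell past the threshold, Cdh5 (log2 fold change -6.43, adjusted p = 0.0108), against 3.93% of genes tested. No listed marker found was at 0 in every library. The part of these cell types in the level of the factors was not tested.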

How the data were processed

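Libraries were prepared with Nextera XT and sequenced from both ends. Per the labels and the study's methods, the authors aligned reads to mm10 with STAR 2.6.1d, used Partek Flow (Partek 8.0 in the submitters' processing notes) for quantification against RefSeq, and deposited the result as estimated counts for each gene, not normalized. In the table, 20 symbols read as dates and were left as they were. Columns were matched to samples by name, and 0 columns were left unmapped. A CML column numbered 5, a number in no label, was matched to the group alone and used as a CML library. The CML sample labelled replicate 4 has no column of that number, and whether column 5 is that sample is not stated. What the labels say is thus applied to CML 5 through its group.

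Estimated counts were rounded. edgeR 4.0.16 in R 4.3.3 was run with TMM, filterByExpr (minimum count 10, minimum total count 15), robust quasi-likelihood fits over all 8 libraries with group as the one term, and Benjamini-Hochberg adjustment over 11937 genes (threshold 0.05). Log2 CPM used a prior count of 2. SE was the log2 fold change over the square root of F. Alternatives were DESeq2 1.42.0, limma 3.58.1 (voom), other scalings, filters, thresholds and libraries, and they are given in the closing section.

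The factors and gene lists were chosen with earlier results of these data known. Named by rule were all 9 factors; of the other listed factors, each tested C/EBP, SpiB/SpiC, GFI and ID gene and the 8 others past the threshold with the highest mean log2 CPM; in each target group the 2 with the highest mean log2 CPM; the gate genes; and for each factor the 3 genes most like it. Coordinates are from the GENCODE annotation of GRCm38 and upstream windows from RefSeq. No molecular identifiers are stated, so floors and intervals cover counting error alone. 1 gene of the stem cell marker list is not reported here and was left out of its sum. Other data types of the study were not analysed here.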

Additional observations from a re-analysis of the deposited data

Results flagged for a closer look

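In 10 of 76 groups of 4 libraries examined, 1 library lay far from the other 3, where chance gives about 1 in 20, or 4. CML 5 stood above the other CML libraries for Cebpa (12.9 CPM against 6.13 to 6.76), Cebpb (31.6 against 9.28 to 12.9), Cebpe (2.89 against 0.136 to 0.193), Gata2 (358.5 against 252.5 to 267.3) and Junb (243.5 against 98.4 to 117.4), and below them for Cebpz (34.0 against 88.6 to 99.0). CML-TKI 1 stood above the other CML-TKI libraries for Id2 (85.3 against 4.94 to 8.37) and Id1 (83.8 against 13.2 to 14.9). Gata2 was low in CML-TKI 2 (21.7 against 65.8 to 74.8) and Nfil3 was high in CML-TKI 3 (44.9 against 21.5 to 24.2).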

How the results depend on the processing

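The 9 factors kept their direction under all 21 alternatives, where they gave a value. With RLE size factors, totals without Rn45s, limma-voom, no filter or a stricter filter 9 passed, and with DESeq2 8, Id2 having no adjusted p. At a threshold of 0.01, 395 genes, 5 of the 9 factors, 5 of the other transcription factors and 13 of the targets passed, and with CML 1 to 3 summed 122, 2, 1 and 8. DESeq2 called 2420 genes and limma-voom 2563, with 21 other transcription factors. Leaving out 1 library gave 505 to 2504 genes, 6 to 18 other transcription factors and 15 to 25 targets. The replicate numbers 1 to 3 did not pair the libraries (correlations of deviations -0.042, 0.097 and 0.093, and not every library was closest to its own number), and a replicate block on them gave 193 genes, 5 factors (not Spi1, Cebpb, Cebpd or Id2), 1 other transcription factor and 8 targets. The same libraries without the block, chosen after seeing the data, gave 589 genes, 7 factors (not Spi1 or Id2), 7 other transcription factors and 12 targets, and leaving out CML 5 and CML-TKI 1 together, also chosen then, gave 2362 genes. Leaving out CML-TKI 2 and CML-TKI 4, chosen in the same way, gave 14 targets. Thinned to the smallest total, 7 factors passed, as Cebpe and Id2 were too low to be tested. Cebpz turned from 0.11 to -0.020 with totals without Rn45s, -0.17 with limma-voom, -0.056 with the block, -0.049 without it and -0.20 without CML 5 and CML-TKI 1, and ranged from -0.15 to 0.24 with 1 library left out. Flt3 turned from 0.65 to -0.37 with the block and -0.30 without it and -0.080 without CML-TKI 2 and CML-TKI 4, and ranged from -0.34 to 0.96. Genes higher made up 61.6% of calls, against 50.7% with totals without Rn45s (median shift of all genes -0.14) and 48.7% with limma-voom (-0.11), 46.8 to 72.1% with 1 library left out (lowest without CML-TKI 1, highest without CML 1) and 83.6% with CML 1 to 3 summed. The cause of these differences was not tested. The depth of CML-TKI 3 limits genes such as Id2, with 5 counts there.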
